A study of Mus musculus with 42 samples.

Results

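Complement genes were read in aorta and skeletal muscle of healthy and diabetic mice. The 7 genes were taken by gene symbol: C1qa and C1qb, which encode chains of the recognition protein C1q, C2 and Cfb, the proteases that start the classical and alternative convertases, C3, the central component that the convertases cleave, C3ar1, the receptor of the C3a fragment, and C6, a subunit of the membrane attack complex. Together they have 10 probes, of 34891 probes with a symbol on the array, and are 7 of 21186 genes. C2, C3 and C3ar1 have 2 probes each, which were averaged, and each gene was well above background, on at least 1 probe, on each of the 42 arrays.

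There were 7 groups of male mice, with 3 arrays per group in each of the 2 tissues, which gives 42 arrays. The methods give their age as 18 to 20 weeks before describing the model and gavage weeks. The age at tissue collection is not stated. The healthy control group (G) was C57BL/6, and the diabetic group (A) was KK/Ay, a strain that carries the yellow agouti allele and becomes obese and diabetic. The macroangiopathy group (C) was KK/Ay that for 8 weeks ate a high-fat diet and took 0.2 mg/ml L-NAME, which blocks nitric oxide synthase. The 4 treated groups were mice of that same model gavaged for another 8 weeks with SHENQI compound (B), its yangyinyiqi part (D), its huoxue part (E) or rosiglitazone (F), a PPAR-gamma agonist, while G, A and C received saline. Groups A and C therefore differ from G in strain as well as in disease, and the sources used here do not say whether the aorta and the muscle of a group came from the same mice.

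Complement is a cascade of plasma proteins in which bound C1q, or the slow spontaneous activation of C3, leads to C3 cleavage, to the inflammatory fragments C3a and C5a, and to a pore in the target membrane. The liver makes most circulating complement. C1q is made mainly by macrophages, and C3, factor B and C2 are also made locally by fat, vessel and immune cells. All values are log2 normalized intensities, on which a difference of 1 is a doubling, and levels of different genes are not compared because each probe has its own brightness.

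The probes show which part of each transcript was read. The 60-base probes of the following genes are given 5′ to 3′ with mouse mm9 coordinates from the array files. Those of C2, Cfb and C3 lie across an intron, since 60 bases cover 176, 357 and 158 bases of the genome, so they match spliced transcripts. For C2 and C3, 1 of the 2 probes is shown.
C1qa (chr4:136452409-136452468): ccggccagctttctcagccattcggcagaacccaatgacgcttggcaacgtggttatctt
C1qb (chr4:136436578-136436637): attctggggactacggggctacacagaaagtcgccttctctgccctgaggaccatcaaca
C2 (chr17:35000126-35000301): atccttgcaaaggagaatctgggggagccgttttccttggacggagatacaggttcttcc
Cfb (chr17:34993502-34993858): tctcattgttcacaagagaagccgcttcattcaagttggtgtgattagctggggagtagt
C3 (chr17:57364538-57364695): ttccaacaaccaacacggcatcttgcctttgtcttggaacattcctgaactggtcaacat
C6 (chr15:4748363-4748422): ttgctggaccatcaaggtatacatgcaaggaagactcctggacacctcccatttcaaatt

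Of the 7 genes, 4 had a promoter window in the RefSeq table used here (C1qb, C3, C3ar1 and C6). The 250 bases before the start of C1qb and of C3 are shown because these genes gave the largest differences below. Capitals mark matches, on either strand, to any of the motifs TTGCNNAA (C/EBP type), GAGGAA (PU.1 type), TTCNNNGAA (STAT type) and GAAANN followed by GAAA (interferon response type), with build GRCm38.p6 coordinates. C1qb holds a GAGGAA that begins 30 bases before the start, and C3 a TTGCNNAA match that begins 45 bases before it. Of 32851 windows of that length, 23.3% hold GAGGAA, 9.56% TTGCNNAA, 7.02% TTCNNNGAA and 2.98% the interferon motif. The windows of C3ar1 and C6 held none of these letters.
C1qb (chr4:136886201-136886450, minus strand): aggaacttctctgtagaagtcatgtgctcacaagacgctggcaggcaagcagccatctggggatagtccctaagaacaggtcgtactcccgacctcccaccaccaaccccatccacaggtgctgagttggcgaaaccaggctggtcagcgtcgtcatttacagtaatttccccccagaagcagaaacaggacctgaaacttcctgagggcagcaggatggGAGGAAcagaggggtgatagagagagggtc
C3 (chr17:57228137-57228386, minus strand): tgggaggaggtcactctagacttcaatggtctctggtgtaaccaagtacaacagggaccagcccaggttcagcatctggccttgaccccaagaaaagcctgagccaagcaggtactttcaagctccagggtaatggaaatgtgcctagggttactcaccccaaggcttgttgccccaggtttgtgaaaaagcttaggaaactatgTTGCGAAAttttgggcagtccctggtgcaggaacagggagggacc

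Before the comparisons, the arrays were checked against the tissues on their labels. Skeletal muscle arrays had mean levels of the muscle marker list between 15.17 and 15.79, and aorta arrays between 7.25 and 14.18, so the amount of muscle in the aorta samples varied widely. Smooth muscle markers were at 11.31 to 13.52 on 20 of the 21 aorta arrays and at 9.14 on healthy aorta array 1. All aorta arrays carried a strong fat signal, with Ucp1, the brown fat uncoupling protein, between 14.98 and 17.51 against 5.29 to 8.93 in muscle. Of the 5 hepatocyte markers on the array, Ttr was well above background on no array, and Ahsg on 21 aorta and 4 muscle arrays. Alb was so on 11 aorta and 5 muscle arrays, Fgb on 10 and 1, and Apoa1 on 3 and 1. The mean of this list was 6.2 to 7.76 in healthy aorta and 5.81 to 6.6 in KK/Ay aorta. Healthy aorta array 1 and healthy muscle array 3 also had the highest neutrophil markers of their tissues, at 13.05 and 11.25, and the values without these arrays stand beside the comparisons with healthy mice. The share of probes well above background was 49.06% to 73.53% per array, lowest on the slide that held the 3 huoxue muscle arrays and rosiglitazone muscle array 1. Healthy muscle arrays shared no slide with muscle of groups A or C.

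**Figure D1:**
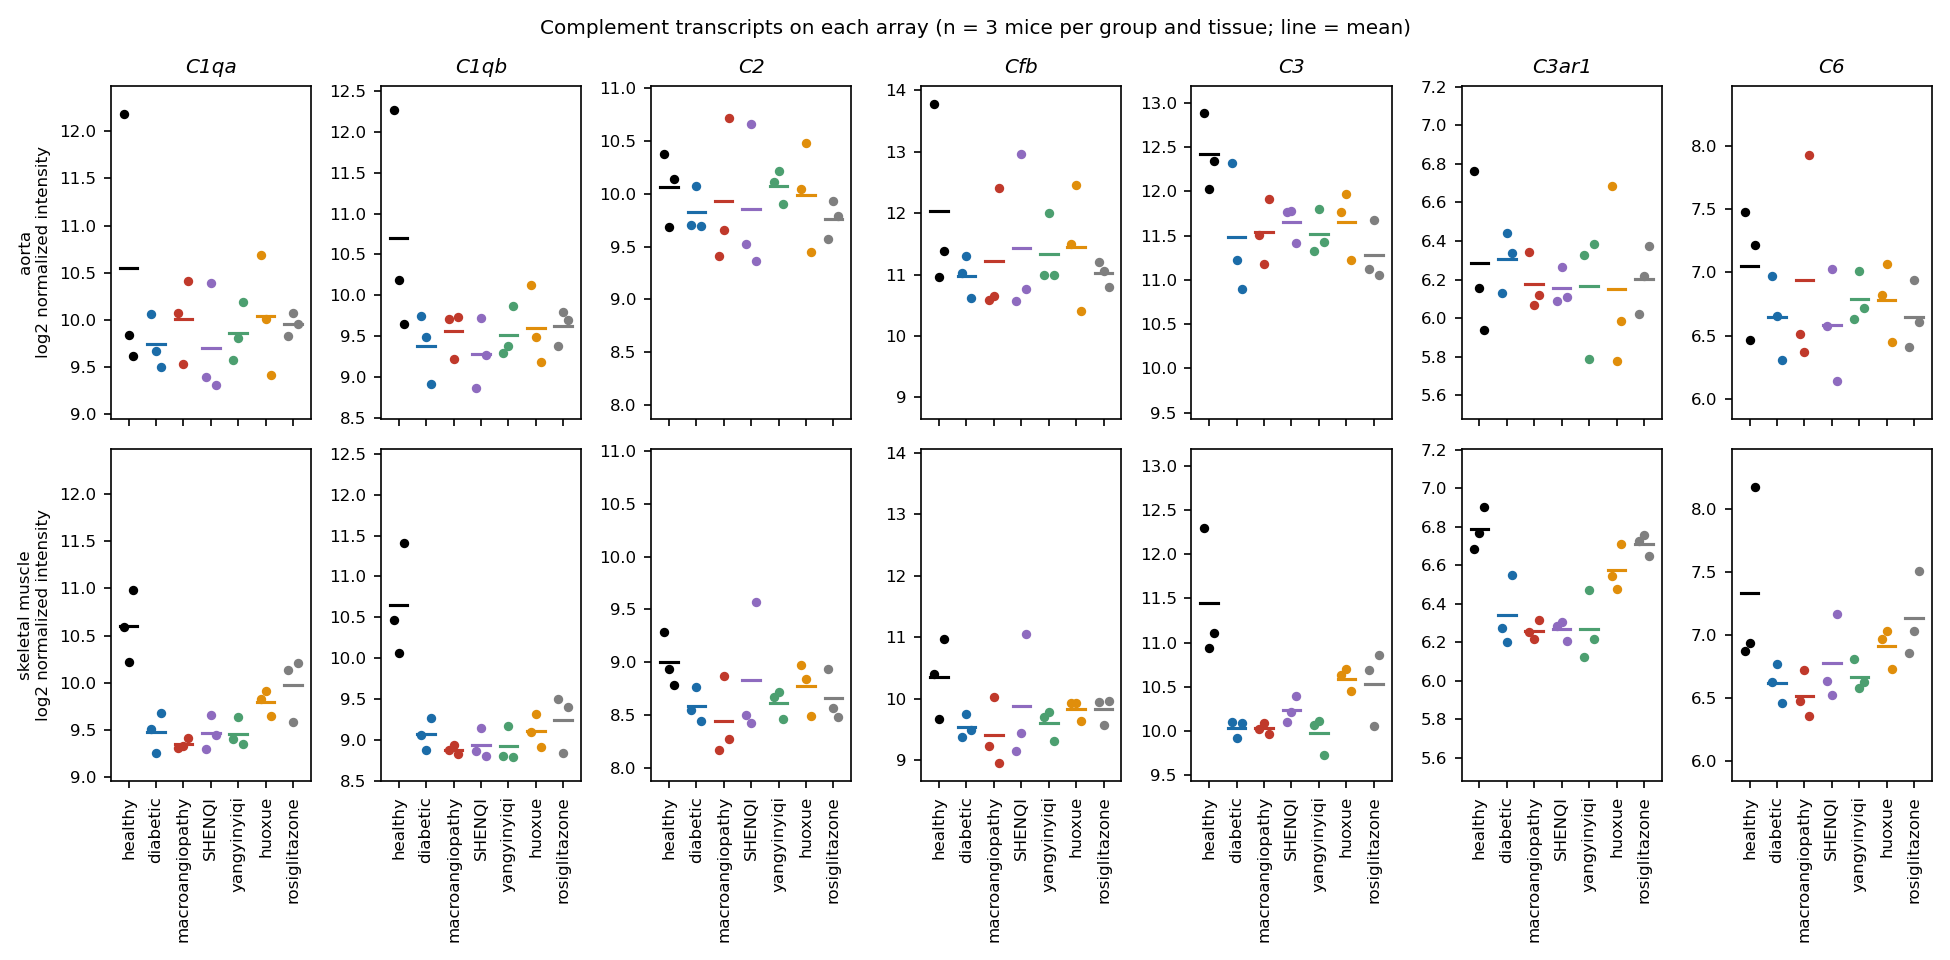
Level of each complement gene on each array. The vertical axis is the log2 normalized intensity, with the same range for both tissues of a gene, each point is 1 array and the line is the mean of 3. In skeletal muscle the healthy arrays of C1qa, C1qb and C3 lie above all 18 KK/Ay arrays, for C1qa by a narrow margin (10.22 against 10.21), and in aorta single arrays of Cfb and C2 stand high in several groups.

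The first question was how complement transcripts differ between KK/Ay mice and healthy mice. In both A vs G and C vs G the fitted difference of all 7 genes was below 0, and C3 was the gene that passed the test in each. C3 was 2.25-fold lower in diabetic mice (95% interval 1.45 to 3.5) and 2.22-fold lower in macroangiopathy mice (1.52 to 3.23). C1qb had the largest difference, 2.73-fold and 2.74-fold lower, and did not pass after adjustment.

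C1q, the recognition molecule, was read through its A and B chains. In skeletal muscle C1qb stood at 10.46, 10.06 and 11.41 in the 3 healthy mice, at 9.06, 8.87 and 9.26 in diabetic mice and at 8.88, 8.94 and 8.83 in macroangiopathy mice. In aorta the healthy values were 12.26, 10.19 and 9.65, against 9.74, 9.49 and 8.91 in diabetic and 9.71, 9.22 and 9.74 in macroangiopathy mice. The muscle groups did not overlap, whereas in aorta 1 healthy array lay far above the rest and the lowest healthy array fell among the KK/Ay values. Over both tissues C1qb differed by -1.45 in A vs G (SE 0.39, adjusted P = 0.0584 in limma) and by -1.46 in C vs G (SE 0.39, adjusted P = 0.0545). C1qa followed the same pattern, with healthy muscle at 10.6, 10.22 and 10.98 and diabetic muscle at 9.51, 9.26 and 9.67. Macroangiopathy muscle read 9.31, 9.33 and 9.42 for C1qa, below all healthy values. Healthy aorta was at 12.18, 9.84 and 9.62 for C1qa, so 1 array carried the aortic mean. The limma differences of C1qa were -0.96 (adjusted P = 0.16) and -0.89 (adjusted P = 0.183).

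Macrophage markers were read beside the C1q values. Mean levels of 10 macrophage markers were 8.31 to 9.44 in healthy muscle and 7.75 to 8.19 in the 18 KK/Ay muscle arrays, and in aorta they were 7.97 to 9.67 and 7.8 to 9.14. Of these 10 markers 2 were lower in A vs G and 3 in C vs G at an unadjusted P below 0.05, against 9.32% and 9.54% of all genes. After adjustment 0 were called, and the medians were -0.49 and -0.51 against 0.03 over all genes in each. The neutrophil markers had medians of -2.13 and -1.48 and the lymphocyte markers of -0.88 and -0.73, with 0 called in limma after adjustment. With muscle arrays alone, 7 of 9 macrophage markers were lower at an unadjusted P below 0.05 in both comparisons, with medians of -0.93 and -1.01. Of all genes 9.27% and 8.98% were lower by that rule. After adjustment 0 macrophage markers in A vs G and 2 in C vs G passed in limma, against 1.84% and 1.37% of genes called lower. All 3 pan-leukocyte markers were also lower there before adjustment, and 1 passed after it in each. Without healthy aorta array 1 and healthy muscle array 3, the difference of C1qb was -0.87 in both comparisons, with adjusted P = 0.0432 and 0.0402, and that of C1qa was -0.46 and -0.39. The part of macrophage content in the C1q differences was not tested. In bulk RNA, fewer cells of a type and less RNA per cell cannot be told apart.

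C3 is cleaved by both convertases, and its protein feeds all later steps. In aorta C3 stood at 12.89, 12.03 and 12.34 in healthy mice, at 12.33, 11.22 and 10.9 in diabetic mice and at 11.51, 11.18 and 11.92 in macroangiopathy mice. In skeletal muscle it stood at 12.3, 10.94 and 11.1 in healthy mice, at 10.1, 9.92 and 10.1 in diabetic mice and at 10.03, 10.1 and 9.97 in macroangiopathy mice. The macroangiopathy arrays lay below every healthy array in both tissues, and the diabetic arrays did so in muscle, while diabetic aorta array 1 reached into the healthy range. The limma difference was -1.17 in A vs G (SE 0.29, adjusted P = 0.0435) and -1.15 in C vs G (SE 0.25, adjusted P = 0.0239). By tissue it was -0.94 in aorta and -1.41 in muscle for A vs G, and at -0.88 and -1.41 for C vs G. The C3 probes both fell in C vs G when fitted singly, by 1.34 and 0.96 (adjusted P = 0.0254 and 0.0333). In A vs G they gave -1.37 and -0.97, with adjusted P = 0.0166 and 0.117. Without healthy aorta array 1, the values were -1.09 (adjusted P = 0.0636) in A vs G and -1.07 (adjusted P = 0.0372) in C vs G. When each array was left out in turn, the adjusted P of C3 was 0.0122 to 0.106 in A vs G, above 0.05 in 9 of 12 cases, and 0.0135 to 0.0652 in C vs G, above 0.05 in 4 of 12.

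Factor B and C2 lie side by side in the MHC class III region and serve as the protease subunits of the convertases. Cfb stood at 13.77, 10.97 and 11.39 in healthy aorta against 11.03, 11.29 and 10.62 in diabetic and 10.59, 10.65 and 12.4 in macroangiopathy aorta. In healthy muscle it was 10.41, 9.67 and 10.97, against 9.37, 9.75 and 9.5 in diabetic and 9.22, 10.03 and 8.96 in macroangiopathy muscle. The groups overlapped in both tissues. Cfb differed by -0.93 (adjusted P = 0.209) and -0.89 (adjusted P = 0.287), without healthy aorta array 1 by -0.54 and -0.51, and without healthy muscle array 3 as well by -0.35 and -0.3. C2 stood at 10.38, 9.68 and 10.14 in healthy aorta, 9.71, 10.07 and 9.7 in diabetic aorta and 9.41, 9.66 and 10.72 in macroangiopathy aorta, with overlap. In muscle it was 9.28, 8.93 and 8.79 in healthy mice, above 8.55, 8.76 and 8.44 in diabetic mice, and it overlapped with 8.17, 8.87 and 8.27 in macroangiopathy mice. C2 differed by -0.33 (adjusted P = 0.218) and -0.35 (adjusted P = 0.38), and without both healthy arrays by -0.31 and -0.33.

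C3ar1 is carried by myeloid cells, and C6 joins the lytic pore. C3ar1 differed by -0.21 in A vs G (adjusted P = 0.449) and by -0.32 in C vs G (adjusted P = 0.212). Its healthy muscle arrays, at 6.69 to 6.91, lay above diabetic muscle at 6.2 to 6.55 and macroangiopathy muscle at 6.22 to 6.31. In aorta the groups overlapped, with a mean of 6.28 in healthy, 6.3 in diabetic and 6.18 in macroangiopathy mice. Its second probe was well above background on 8 of 21 aorta arrays and 1 of 21 muscle arrays. In healthy, diabetic and macroangiopathy muscle that probe had means of 6.23, 5.6 and 5.63, and the first probe 7.34, 7.08 and 6.89. The first C3ar1 probe, detected on all arrays, alone gave -0.03 and -0.25 in limma (adjusted P = 0.929 and 0.372). Without both healthy arrays the averaged C3ar1 differences were -0.06 and -0.17. In muscle C6 stood at 6.88, 6.94 and 8.18 in healthy mice, 6.63, 6.78 and 6.47 in diabetic mice and 6.48, 6.72 and 6.36 in macroangiopathy mice, without overlap with the healthy arrays. C6 differed by -0.56 (adjusted P = 0.213) and -0.46 (adjusted P = 0.401). Healthy muscle array 3 held the highest of all C6 values, and without it the C6 differences were -0.35 and -0.24, and without healthy aorta array 1 as well -0.24 and -0.15.

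**Figure D2:**
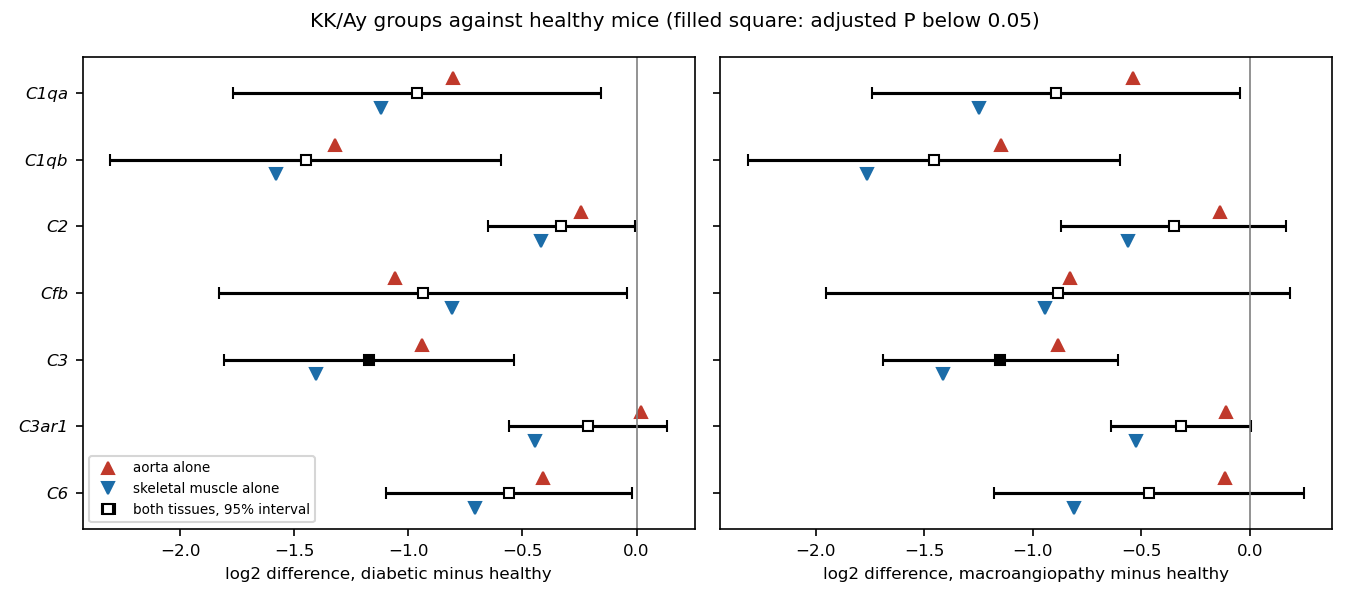
Difference of the diabetic and macroangiopathy groups from healthy mice. Squares are the log2 difference over both tissues with its 95% interval, filled where the adjusted P was below 0.05, and triangles are each tissue alone. C3, at -1.17 and -1.15, is the gene with a filled square in each panel.

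Counted over the group, 1 of 7 genes passed in A vs G after adjustment, against 4.5% of the 14808 genes tested, and 6 of 7 were lower at an unadjusted P below 0.05, against 9.32% of all genes. In C vs G 1 of 7 passed, against 5.2% of 15742 genes, and 3 of 7 were lower before adjustment, against 9.54%. The medians of the 7 differences were -0.94 and -0.89, against 0.03 over all genes in both. A vs G and C vs G share the healthy arrays, so they are not independent of each other. The 7 genes were chosen with earlier results of these data known. They also vary together, with pairwise r from 0.11 to 0.92 within tissues, so the counts are descriptions and not 7 separate findings. In skeletal muscle the arrays of 6 of 7 genes did not overlap in A vs G, all lower, against 13.1% of all genes, and those of 5 of 7 in C vs G, against 12.3%. C3ar1 was among them in both, read as the average with its dim second probe. In aorta 0 of 7 did so in A vs G, against 8.35%, and 1 of 7 in C vs G, against 11.5%.

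With muscle arrays alone, C1qa passed in A vs G (adjusted P = 0.0432), and C1qa and C1qb passed in C vs G (adjusted P = 0.0302 and 0.0416), against 1.84% and 1.37% of genes called lower. With aorta arrays alone 0 of 7 passed in limma in either comparison, with 0.128% and 0.162% of all genes called lower. There 0 and 1 of 7 were lower at an unadjusted P below 0.05, against 5.1% and 7.32% of genes. The difference between the tissues, tested as an interaction, passed for 0 of 7 genes in both, against 0.0743% and 0.108% of all genes. It also passed for 0 of 7 at an unadjusted P below 0.05, against 7.13% and 12.4%. The smallest adjusted P values of these interactions were 0.856 and 0.588.

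Slide and scan day are partly tied to the groups. On the slide that held both, diabetic aorta array 1 lay below the mean of 2 healthy aorta arrays by 0.29 for C3, 1.21 for C1qb, 0.84 for C1qa and 1.55 for Cfb, and the difference was also below 0 for C2, C3ar1 and C6. For muscle the slide with 2 healthy arrays held 2 rosiglitazone arrays, which differed from them by -1.15 for C3, -1.14 for C1qb, -0.51 for C1qa and 0.36 for C6. These values rest on 1 or 2 arrays a side and have no test. For groups A and C in muscle, slide and group cannot be told apart within a slide. In a fit of all 42 arrays with scan day as a term, the C3 difference was -1.26 in A vs G and -1.12 in C vs G (adjusted P = 0.00999 and 0.0327 in limma). The muscle arrays of A and C were all scanned on 1 day, which held no healthy array. Only rosiglitazone muscle, with array 1 on that day and arrays 2 and 3 on another, ties it to the other days. The muscle part of this fit therefore rests on those few arrays. With 3 slides as a batch term in place of scan day, the C3 difference was -0.85 and -0.73 (adjusted P = 0.00567 and 0.0356 in limma). In C vs G that was over 1.5 times smaller than without the term.

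Of 46 other complement genes on the array, 34 were tested in A vs G and 33 in C vs G, with medians of 0.13 and -0.02. In A vs G Masp2 (1.05), a lectin pathway protease, and C1s (0.49), a protease of the C1 complex, were called higher, and Cfd (-2.38) and Gpr77 (-1.22), a C5a receptor, lower. In C vs G Masp2 (1.05) and Cd59a (0.86), a membrane inhibitor of the lytic pore, were called higher and Cfd (-2.7) lower. As background, 2.29% of all genes tested in A vs G were called higher and 2.22% lower after adjustment. For C vs G these shares were 2.98% and 2.22%. When single arrays were left out, the calls of Masp2 and Gpr77 held in all 12 fits, whereas that of C1s was lost in 9 of 12 (adjusted P up to 0.111), that of Cd59a in 10 of 12 (up to 0.108) and that of Cfd in 9 of 12 in A vs G and 6 of 12 in C vs G (up to 0.0936 and 0.0652). Cfd encodes factor D, or adipsin, the fat-derived protease that activates factor B. Its adjusted P was 0.0365 in A vs G and 0.0267 in C vs G. In muscle it stood at 15.74, 14.64 and 14.57 in healthy mice, 10.88, 11.48 and 11.17 in diabetic mice and 10.44, 12.46 and 10.5 in macroangiopathy mice. In aorta it stood at 14.97, 17.39 and 17.42 in healthy, 15.55, 15.66 and 15.71 in diabetic and 15.86, 14.56 and 14.74 in macroangiopathy mice, with overlap. The difference of Cfd was -3.81 and -3.85 with muscle arrays alone (adjusted P = 0.0038 and 0.0259), and -0.95 and -1.54 with aorta arrays alone (adjusted P = 0.619 and 0.326). C1qc, the third C1q chain, differed by -1.06 and -0.98 (adjusted P = 0.124 and 0.148).

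The second question was whether the high-fat diet and L-NAME changed complement genes beyond KK/Ay diabetes. In C vs A 0 of 7 genes passed in limma, and 0 had an unadjusted P below 0.05, against 0% of all 15724 genes called after adjustment and 5.14% before it. The differences ran from -0.1 for C3ar1 to 0.09 for C6. The interval of the C3 difference was -0.43 to 0.47, and that of C1qb was -0.33 to 0.32, so a change of more than 1.39-fold in C3 or 1.26-fold in C1qb lay outside them. The Cfb interval was wider, from -0.61 to 0.71.

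The third question was what each treatment did to complement genes in the macroangiopathy model. All 4 comparisons use the same macroangiopathy arrays. With SHENQI compound (B vs C) and its yangyinyiqi part (D vs C), 0 of 7 genes passed in limma and 0 had an unadjusted P below 0.05, and 0% of all genes passed after adjustment in each, with 2.72% and 3.41% before it. In B vs C the differences ran from -0.11 for C1qb to 0.35 for Cfb, and in D vs C from -0.04 for C3 to 0.16 for C2. SHENQI aorta array 2, at 12.96, and SHENQI muscle array 3, at 11.05, held the highest Cfb of the KK/Ay arrays of their tissues. The other SHENQI arrays were at 10.57 and 10.77 in aorta and at 9.15 and 9.44 in muscle, and the interval of the Cfb difference ran from -0.73 to 1.43.

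With the huoxue part (E vs C) all 7 differences were above 0, from 0.12 for C6 to 0.34 for C3, and 0 passed in limma after adjustment, with 0 at an unadjusted P below 0.05, against 0% of all genes after and 14.3% before adjustment. C3 muscle values were 10.63, 10.704 and 10.45 with huoxue, above the macroangiopathy values of 10.03, 10.1 and 9.97. In aorta they were 11.77, 11.97 and 11.23 against 11.51, 11.18 and 11.92, which overlap. With muscle arrays alone 4 of 7 genes rose: C3 by 0.56, C1qa by 0.44, C6 by 0.39 and C3ar1 by 0.32 (adjusted P = 0.0044, 0.0105, 0.0418 and 0.0277). In that fit 17.4% of all 13422 genes were called higher and 14.9% lower. The muscle arrays of these 4 genes did not overlap, as was so for 27.1% of all genes. The C3ar1 value averages a second probe that was well above background on 0 of these muscle arrays, with means of 5.96 and 5.63. Its first probe had means of 7.2 and 6.89. The tissue interaction in E vs C passed for 0 of 7 genes, against 3.05% of all genes (smallest adjusted P = 0.48 in limma). At an unadjusted P below 0.05 it also passed for 0 of 7, against 17.5%. The 3 huoxue muscle arrays were on 1 slide with no macroangiopathy array. With that slide and 2 others as 1 joint batch term, the C3 difference over both tissues was 0.02. No group had arrays both on the huoxue slide and outside those 3 slides, so the size of the term comes from the 2 other slides. It cannot show what the huoxue slide adds, which was not tested.

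With rosiglitazone (F vs C) all 7 differences were above 0, from 0.03 for C2 to 0.29 for C1qa, and 0 passed in limma after adjustment, against 0.00631% of all genes, and 1 passed before it, against 12%. C3ar1 had an unadjusted P of 0.0338, with a difference of 0.24 (adjusted P = 0.373). Its probe detected on all arrays alone gave 0.16 (unadjusted P = 0.196 in limma), so the unadjusted pass needs the second probe, which was at background on most arrays. In muscle C3ar1 stood at 6.72, 6.76 and 6.65 with rosiglitazone, above 6.25, 6.22 and 6.31 in macroangiopathy mice. With muscle arrays alone it rose by 0.45 (adjusted P = 0.018 in limma), against 4.09% of genes called higher. That rise also averages the second probe, well above background on 0 of these muscle arrays, with means of 6.15 and 5.63. The first probe had means of 7.27 and 6.89 and was not fitted alone in muscle. The muscle arrays of C1qa, C3ar1 and C6 did not overlap, against 19.4% of genes. In aorta, at 6.02, 6.22 and 6.38 against 6.34, 6.07 and 6.12, the groups overlapped. The rosiglitazone and macroangiopathy muscle arrays shared no slide. The tissue interaction in F vs C passed for 0 of 7 genes, against 1.52% of all genes (smallest adjusted P = 0.205 in limma). At an unadjusted P below 0.05 it passed for 1 of 7, against 16.6%. Of the other complement genes, 0 passed in limma in C vs A or in any of the 4 treatment comparisons over both tissues, and between 0 and 2 of 33 to 35 genes had an unadjusted P below 0.05, against the shares of all genes given above for each comparison. With muscle arrays alone 4 of 30 were called higher and 5 lower in E vs C, and 1 higher in F vs C. Of all genes in those muscle fits, 17.4% were called higher and 14.9% lower in E vs C, and 4.09% higher in F vs C.

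**Figure D3:**
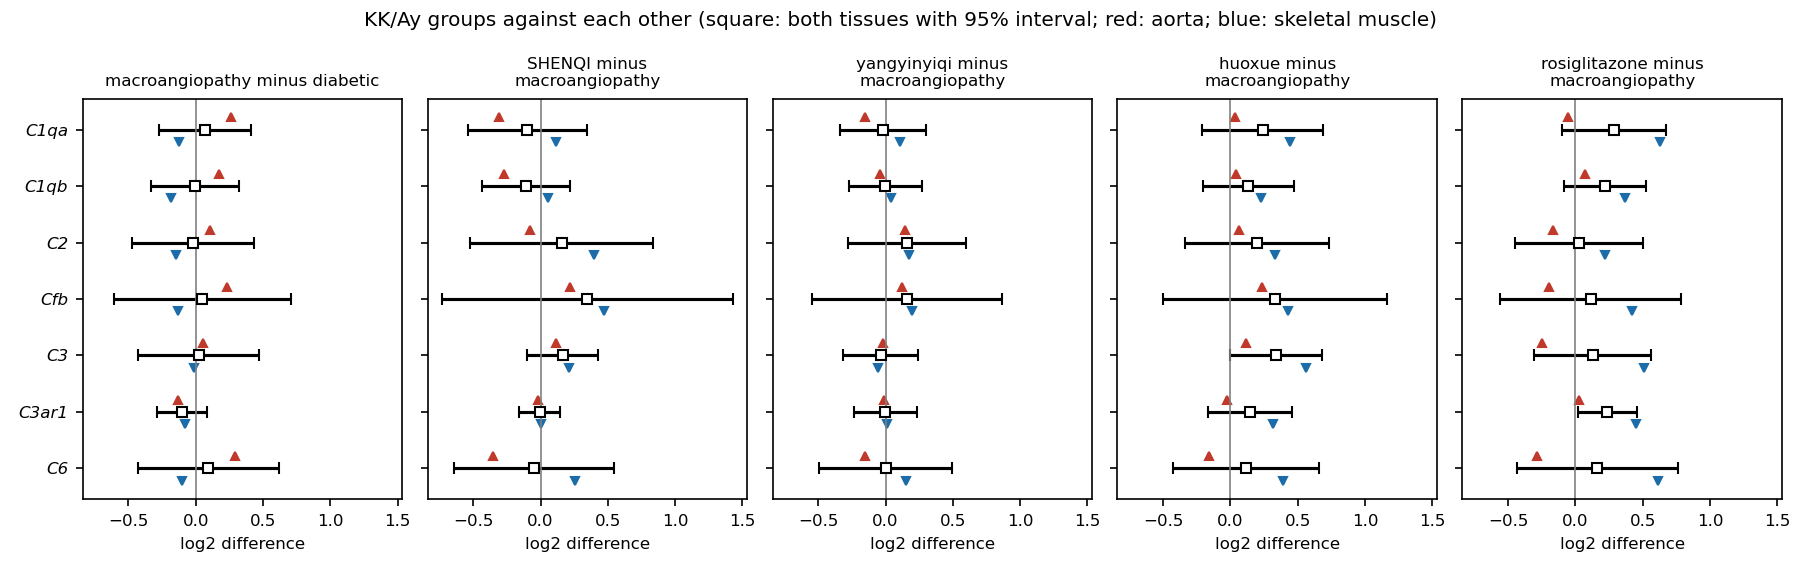
Differences among the KK/Ay groups. Squares are the log2 difference over both tissues with its 95% interval, red triangles aorta and blue triangles skeletal muscle. In E vs C and F vs C the muscle values of all 7 genes are above 0, and 0 of 7 genes passed after adjustment over both tissues in any panel.

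Across the groups, the order of the means put the healthy mice first in skeletal muscle for all 7 genes. Among the KK/Ay groups in muscle, rosiglitazone and huoxue came next for C1qa, C1qb, C3ar1 and C6, and macroangiopathy was the lowest group for C1qa, C1qb, C2, Cfb, C3ar1 and C6. Arrays of neighbouring KK/Ay groups in these muscle orders overlapped, except that SHENQI lay above diabetic for C3 by a narrow margin (10.105 against 10.1). In aorta healthy mice came first for C1qa, C1qb, Cfb, C3 and C6, yangyinyiqi for C2 and diabetic mice for C3ar1, with overlapping arrays between healthy mice and the next group for all but C3.

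Between the tissues, C2, Cfb and C3 were higher in aorta than in skeletal muscle, by 1.23 (SE 0.11), 1.58 (SE 0.21) and 1.24 (SE 0.12), or 2.35-fold, 2.98-fold and 2.36-fold. C1qb was higher by 0.41 (adjusted P = 0.0084), and C3ar1 lower by 0.25 (SE 0.07, adjusted P = 0.00177). C1qa (0.24, adjusted P = 0.115) and C6 (-0.08, adjusted P = 0.572) did not pass. Thus 5 of 7 genes passed, against 76.5% of the 16176 genes tested. The aorta ranges were 10.9 to 12.89 for C3, 9.37 to 10.72 for C2 and 10.4 to 13.77 for Cfb, and the muscle ranges 9.73 to 12.3, 8.17 to 9.57 and 8.96 to 11.05. Tissue goes largely with scan day, and healthy muscle array 3 was the only muscle array scanned on a day with aorta arrays. With scan day as a term the tissue differences therefore rest on that array, which also had the highest neutrophil markers of its tissue. They were 1.43 for C2 (adjusted P = 0.017 in limma), 1.06 for C3 (0.0507) and 0.84 for Cfb (0.501), so C3 and Cfb no longer passed. For C6 the value was -1.5 (adjusted P = 0.0056) and for C3ar1 -0.61 (0.0913). The values of C1qb (-0.74) and C1qa (-0.57) changed sign. With the 6 healthy arrays alone 0 passed. The fat signal of the aorta arrays goes with these differences, and its part was not tested. Of the other complement genes, 21 of 36 were higher in aorta and 8 lower, against 40.2% and 36.3% of all genes, among them Cfd (3.48), the carboxypeptidase N subunit Cpn2 (2.41) and clusterin, Clu (2.36), which were higher, and Vtn (-1.82), the vitronectin gene, which was lower.

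Within the aorta, Cfb stood high on single arrays of several groups. The highest Cfb values, 13.77, 12.96, 12.45, 12.4 and 12.01, were those of healthy array 1, SHENQI array 2, huoxue array 2, macroangiopathy array 3 and yangyinyiqi array 2. These 5 arrays, with rosiglitazone array 1 at 11.2, were the 6 whose mean over 7 lymphocyte markers was above 8, at 8.36 to 9.68. On the other 15 aorta arrays Cfb ran from 10.4 to 11.5, with a median of 10.97 against 12.43 on those 6. C2 had a median of 10.43 on the 6 arrays and 9.71 on the 15, and C6 of 7.05 and 6.61. The medians of C1qa were 10.2 and 9.67, those of C3 11.86 and 11.43, those of C3ar1 6.07 and 6.22, and those of C1qb 9.61 and 9.65. The threshold of 8 was set after the values were seen, so these are descriptions. Without the 6 arrays C3 differed by -1.09 in A vs G and -1.19 in C vs G.

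**Figure D4:**
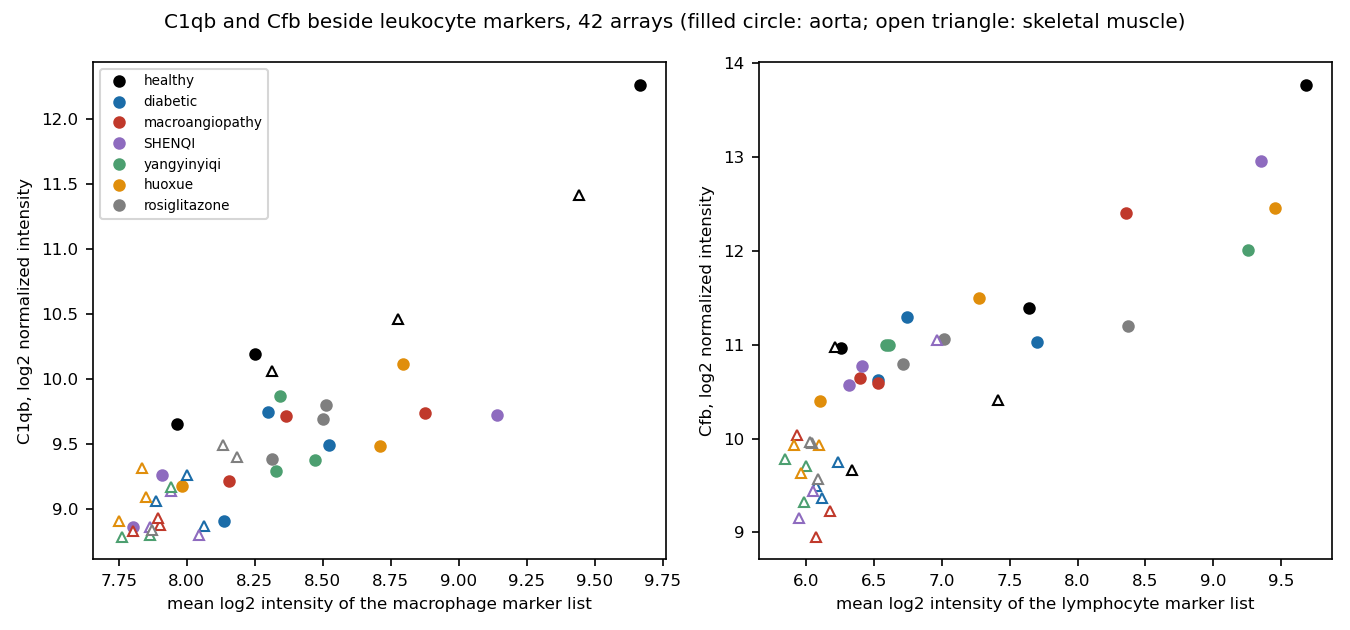
C1qb beside macrophage markers and Cfb beside lymphocyte markers on the 42 arrays. Each axis is a log2 normalized intensity, the horizontal one a mean over the marker list, circles are aorta and triangles skeletal muscle. Healthy aorta array 1 is the top point of both panels, and 5 aorta arrays with lymphocyte markers above 8 have Cfb at 12.01 or higher.

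The genes most like each member were ranked by Pearson r over the 42 arrays after the tissue mean was taken out, among 15952 genes. C1qa was most like Fcgr3 (r = 0.96), C1qc (0.95) and Ms4a7 (0.93), and C1qb most like C1qa (0.92), C1qc (0.91) and Ms4a6d (0.9). C2 was most like Cfb (0.82) and Naaa (0.78), and Cfb most like Mpeg1 (0.91), Batf (0.9) and Csf2rb (0.9). C3 was most like Tmem229b (0.85), Lgals3bp and Papd4, C3ar1 most like Ccl9 (0.73), Hdc and Fcgr3, and C6 most like Ccl8 (0.85), Csf2rb and Csf2ra. Within the group the lowest value was that of C2 with C3ar1 (0.11). The arrays share groups and slides, and the 2 healthy arrays with high neutrophil markers enter all these values, which are descriptions with no test.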

How the data were processed

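Single-colour Agilent mouse arrays were read by the authors with Agilent Feature Extraction 10.7, and the deposited scanner files give each spot's intensity. A table of processed log2 values that the authors deposited with them served as an alternative.

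Median intensities were background corrected with normexp (offset 0) in limma 3.58.1 (R 4.3.3), quantile normalized over the 42 arrays without control spots, and put on the log2 scale. Irregular spots were masked, and spots of a probe and probes of a symbol were averaged. Genes entered a test if 1 probe or more exceeded background clearly on the 3 arrays of any of the 4 tissue and group sets. Every comparison took 12 arrays, with terms for group and tissue, in lmFit and eBayes, and differences between tissues were interactions. The comparison of aorta with skeletal muscle used all 42 arrays with group as a term. Calls were made at a Benjamini-Hochberg adjusted P below 0.05 over all genes tested, with counts at an unadjusted P below 0.05 beside them. If both tissues came from the same mice, the 12 arrays of a comparison come from 6 mice. Where the tissues of a mouse vary together, the P values of the group term are then too small. Those of the interaction and of aorta against muscle are then too large. The number of arrays limits the precision.

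The 7 genes, the pathway list and the marker lists were chosen with earlier results of these data known. All 7 genes were described. Other complement genes were named when they passed, up to 6 per comparison, together with Cfd, and up to 3 genes most like each of the 7 were named. Some genes that these rules select are not reported here. C1qc in the comparisons was named after its values were seen. The other settings were normexp with an offset of 50, the processed signal with 75th percentile scaling, normalization by tissue, a stricter or no filter, the brightest probe of a gene, all 42 arrays with 14 means, slide as a random block or a batch term, the authors' table, trend and robust options, each tissue alone, a replicate block and each array left out. The settings with scan day, single probes and sets of arrays left out were chosen after seeing the data. The scripts were tested on simulated data.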

Additional observations from a re-analysis of the deposited data

How the results depend on the processing

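The count of genes called in A vs G, 1 of 7, was 3 with all 42 arrays and 14 means, with slide as a random block and with 3 slides as a batch term, 2 with scan day as a term and without the arrays of slides 2 and 3, and 0 with no filter or with aorta alone. In C vs G, also 1, it was 3 with all 42 arrays, 2 with 3 slides as a batch term, slide as a random block, the authors' table, the brightest probe, the processed signal, muscle alone, or without both healthy arrays with high neutrophil markers, and 0 with aorta alone or without the arrays of slides 2 and 3. Leaving out single arrays gave 0 to 2 in both comparisons. In A vs G it was 0 without diabetic aorta array 2 or 3, any diabetic muscle array, or healthy muscle array 1 or 3, and 2 without healthy aorta array 2. In C vs G it was 0 without macroangiopathy aorta array 2 or any macroangiopathy muscle array, and 2 without healthy aorta array 2 or 3. The gene called in A vs G was C1qb and not C3 without healthy aorta array 1 or 3, or without both healthy arrays with high neutrophil markers (C3 adjusted P = 0.0636, 0.0666 and 0.0814). The adjusted P of C3 ranged from 0.000243 to 0.454 over the settings in A vs G and from 0.00033 to 0.208 in C vs G, and its difference stayed below 0 in all settings run.

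Same-numbered arrays of different groups within a tissue deviated together with correlations from -0.52 to 0.59. In each comparison at most 3 of 6 pairs were over 0.1 and 1 or more was below 0. These pairs are different mice, so the values cannot show whether same-numbered aorta and muscle arrays of a group share a mouse. That was not tested. With a replicate block the count was 2 in A vs G and 0 in C vs G, and 0 in the other 5 comparisons. Without the arrays of slides 2 and 3, which leaves 1 healthy array per tissue that is assumed to vary like the other groups, 2 interactions passed in A vs G and 1 in C vs G. Muscle arrays alone gave 4 calls for the huoxue part (E vs C) and 1 for rosiglitazone (F vs C). In aorta vs skeletal muscle, 5 genes became 0 with healthy arrays alone. With scan day as a term the tissue differences rest on healthy muscle array 3, the only muscle array scanned on a day with aorta arrays. Signs changed in aorta vs skeletal muscle for C1qa (-0.053 with healthy arrays alone, -0.57 with scan day), C1qb (-0.74 with scan day) and C6 (0.053 with the processed signal), in A vs G for C3ar1 (0.02 in aorta, 0.073 with the processed signal) and in C vs G for C6 (0.102 with scan day). The cause was not tested.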

Other observations

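The genes called against healthy mice were also read in the treated groups, as values with no test. Masp2 ran from 6.37 to 6.87 on the 18 KK/Ay aorta arrays, above 5.58 to 5.84 in healthy aorta, and from 7.18 to 7.76 in KK/Ay muscle, above 5.99 to 6.48. Cfd in KK/Ay muscle ran from 10.44 to 14.26, below the healthy range of 14.57 to 15.74. Its highest KK/Ay muscle value was that of SHENQI muscle array 3, which also had the highest KK/Ay muscle value of Cfb (11.05) and of the adipocyte marker list (12.02 against 9.66 to 10.65 on the other 17 arrays).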
